A study of Mus musculus with 8 samples.

Results

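The genes described here are 9 costimulatory receptors or activation receptors of T cells (Icos, Cd28, Cd27, Tnfrsf4, Tnfrsf9, Tnfrsf18, Tnfrsf1b, Tnfrsf25 and Cd69) and the gene of the CD40 ligand, Cd40lg. They were picked with earlier results of these data known and were found in the table by gene symbol, each symbol matching 1 entry, giving 10 of the 47493 genes in the table. The 8 RNA libraries came from 4 female C57BL/6 mice aged 6 to 8 weeks. In all 4 mice, 200000 B16F10 melanoma cells were placed in the skin on day 0, cyclophosphamide followed on day 3 at 300 mg/kg, and 2000000 Pmel-1 cells, which are CD8+ T cells of a T-cell receptor transgenic donor that recognise the melanoma antigen gp100 and carry Thy1.1, were transferred on day 5. The mice also received 10000 IU of recombinant human IL-2 on each of 3 days from day 5 and 200 μg of the CD4-depleting antibody GK1.5 weekly from day 10. On day 25, endogenous CD8+ T cells, which lack Thy1.1, were obtained with a CD8 kit that removes other cells (negative selection, per the study's methods) and Thy1.1 beads from the inguinal lymph nodes and spleen of each mouse and passed over a magnetic column after labelling of IL-18Rα, a subunit of the interleukin-18 receptor. The cells held on the column formed the IL-18Rαhi-enriched fraction (n = 4) and those that ran through formed the flow-through fraction (n = 4), which is depleted of IL-18Rαhi cells. Both fractions therefore share the tumor, the cell transfer and every drug, and no untreated mouse was part of the comparison.

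A T cell needs a costimulatory signal beside that of its antigen receptor in order to divide, survive and make cytokines. CD28 and its relative ICOS bind B7 family ligands and signal through phosphoinositide 3-kinase, whereas OX40, 4-1BB, GITR, TNFR2, DR3 and CD27 are TNF receptor family members that recruit TRAF adaptors and act on NF-κB. CD40 ligand is itself a TNF family ligand, is best known on helper T cells, and engages CD40 on B cells, dendritic cells and macrophages. CD69 is a lectin-like receptor that appears early after activation, is kept by many tissue-resident T cells, and retains cells in tissue by removing the sphingosine-1-phosphate receptor S1PR1 from the surface.

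Levels are FPKM, fragment values divided by the length of the transcript and by the size of the library. Libraries were estimated, from genes of very low FPKM and without a counting error, to hold between 15600000 and 19000000 fragments. The CD8 T-cell identity genes (Cd8a, Cd8b1, Cd3d, Cd3e, Cd3g, Cd247 and Lck) summed to between 1982 and 2483 FPKM in 7 libraries and to 1239 FPKM in flow-through 1. Of those 7 genes, 0 passed the test between the fractions (0 also with the mouse as a block), and Cd8b1, the most abundant, averaged 546 ± 147 FPKM (SD, n = 4) in flow-through and 618 ± 44.2 FPKM in enriched cells. The median log2 difference of the 7 genes was 0.37. Cd8a, Cd3e, Cd3g and Lck, 4 of the 7, were higher in enriched cells without overlap, as were 16.4% of all genes. Erythroid genes, led by the α-globin gene Hba-a1, summed to 974 FPKM in flow-through 1 and 914 FPKM in enriched 1 against between 88.7 and 444 FPKM in the other 6 libraries. Because flow-through 1 stood apart, the changes of the 10 genes are also given without it.

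Of the 10 genes, 8 were higher in IL-18Rαhi-enriched cells at an adjusted p below 0.05 and 0 were lower (limma on log2(FPKM + 1), Benjamini-Hochberg over the 12166 genes that averaged 1 FPKM or more). In the same test 14.1% of all genes were higher and 13.7% lower. When the mouse entered the fit as a block, 8 of the 10 were higher and 1 lower, beside 22.2% and 22.7% of all genes, and without the filter on low values 7 were higher, beside 7.32%. Cd40lg, Icos and Tnfrsf4 rose most, by 2.04, 1.64 and 1.59 on the log2 scale, while Cd28, Tnfrsf9, Tnfrsf18, Tnfrsf1b and Tnfrsf25 rose by between 0.69 and 1.03. Cd27 and Cd69 did not pass the test. The median over the 10 genes was 0.96, beside -0.02 over all 12166 genes. The levels of the 8 genes that rose did not overlap between the fractions, which held in that direction for 16.4% of all genes, and each was higher in the enriched fraction of 4 of 4 mice, as were 29.2% of all genes. All 10 passed the filter on low values. Without flow-through 1, the log2 fold changes were 1.86 for Cd40lg, 1.51 for Icos, 1.44 for Tnfrsf4, 0.87 for Tnfrsf25, 0.83 for Tnfrsf1b, 0.74 for Tnfrsf9, 0.68 for Cd28 and 0.47 for Tnfrsf18, each smaller than with it, and 8 genes were still higher, beside 14.1% of all genes. In bulk RNA, more cells that carry a transcript and more transcript per cell cannot be told apart.

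**Figure D1:**
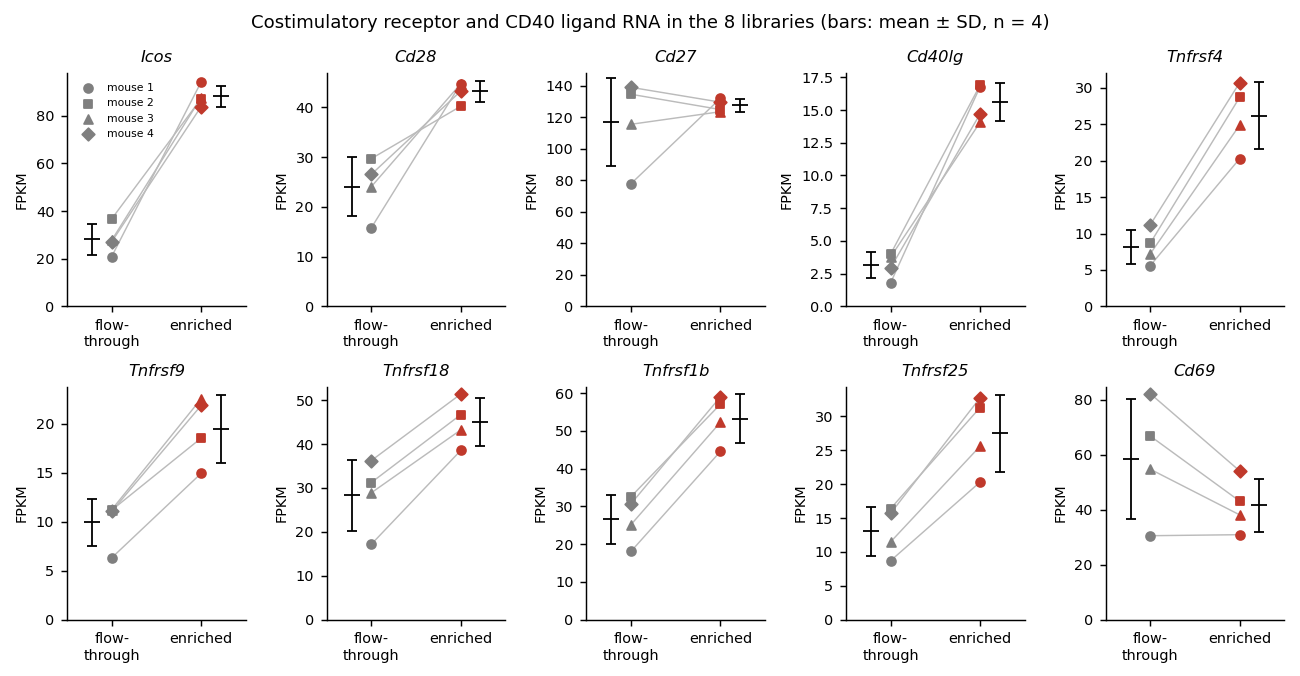
FPKM of the 10 genes in the 8 libraries (vertical axes, each starting at 0), with lines joining the fractions of 1 mouse and bars giving mean ± SD (n = 4). The enriched points lie above all flow-through points in 8 panels, whereas Cd27 and Cd69 overlap.

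Icos, the inducible costimulator, was measured at 20.9, 36.7, 27.7 and 27.1 FPKM in flow-through 1 to 4 and at 94.2, 87.1, 87.6 and 83.8 FPKM in enriched 1 to 4. All enriched libraries were high and close together, with no overlap with flow-through. The means were 28.1 ± 6.51 and 88.2 ± 4.33 FPKM (SD, n = 4), a ratio of 3.14, and the ratio within a mouse ran from 2.37 to 4.50. On the log2 scale Icos rose by 1.64 (SE 0.15, 95% interval 1.30 to 1.98, limma adjusted p = 0.000461), and by size of rise Icos ranked 62 among the 12166 genes. Icos, Cd28, Cd40lg and Tnfrsf4 are in the list of genes that the study selected on these same libraries, so their rise is not independent evidence of a direction. The other genes described here were also picked with earlier results of these data known, so the same holds for them.

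Cd28, the constitutive receptor for CD80 and CD86, had flow-through values of 15.8, 29.7, 24.1 and 26.5 FPKM and enriched values of 44.7, 40.2, 44.7 and 43.2 FPKM. The enriched libraries again lay within a narrow band above all flow-through libraries. The ratio of the means was 1.80 and the log2 fold change 0.86 (SE 0.17, limma adjusted p = 0.00871).

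The 2 genes are near neighbours on the plus strand of mouse chromosome 1 in mm10 (GENCODE M21), Cd28 at chr1:60716800-60773359 and Icos at chr1:60977927-61000320, with the inhibitory receptor gene Ctla4 between them as the single protein-coding gene in a gap of 204567 bases. Within a library, the ratio of Icos to Cd28 FPKM was 1.18 ± 0.128 in flow-through and 2.04 ± 0.111 in enriched cells (SD, n = 4). The ratio was higher in the enriched fraction of 4 of 4 mice, so Icos rose more than Cd28, by 0.78 on the log2 scale of FPKM + 1. The exact two-sided permutation test gave p = 0.0286, the smallest that 4 against 4 libraries allow, and 0.0286 after Benjamini-Hochberg adjustment over 4 such ratios. That test does not use the pairing by mouse. The genes of all 4 ratios were picked with earlier results of these data known, so its p is not independent evidence of a difference. For each of the 4 ratios, sign flips within the mice gave an exact p of 0.125, the smallest that 4 mice allow. A ratio of FPKM within a library does not depend on how the library was scaled, but the tested log2 difference does, through the pseudocount. A pseudocount of 0.1 gave a log2 difference of 0.79 for Icos to Cd28.

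Cd40lg on chromosome X (chr X, 57212143 to 57224042, plus strand) was the least abundant of the 10 genes in both fractions and showed the largest log2 fold change of the 10. Its levels were 1.80, 4.0, 3.77 and 2.95 FPKM in flow-through 1 to 4. In enriched 1 to 4 they were 16.8, 16.9, 14.1 and 14.7 FPKM. Every enriched value was above 14 FPKM and every flow-through value at or below about 4 FPKM. The ratio of the means was 4.98, with 3.73 to 9.32 within the mice, the rise was 2.04 on the log2 scale (SE 0.18, 95% interval 1.63 to 2.45, limma adjusted p = 0.000416), and it ranked 16 among 12166 genes. The receptor for this ligand, Cd40, was measured at 0.967 ± 0.430 FPKM in flow-through and 1.90 ± 0.872 FPKM in enriched cells and did not pass the test (limma adjusted p = 0.165).

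**Figure D2:**
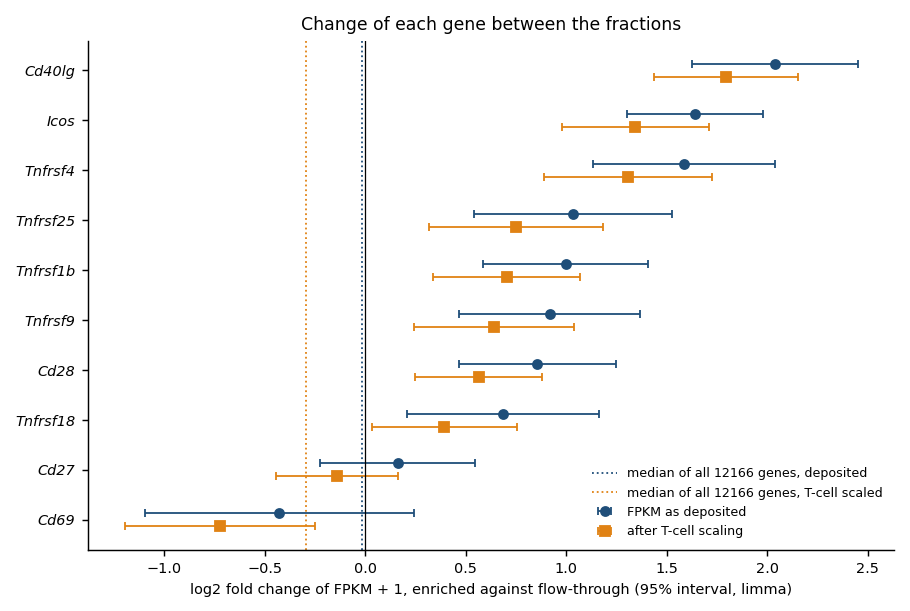
log2 fold change of FPKM + 1, enriched against flow-through, for the 10 genes with 95% intervals from limma, as deposited (circles) and after each library was divided by the geometric mean of 7 CD8 T-cell identity genes (squares). Dotted lines mark the medians of all 12166 genes, -0.02 and -0.29. Cd40lg, Icos and Tnfrsf4 stand highest on both scales, and Cd27 changes sign.

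Of the TNF receptor family genes, 5 lie on chromosome 4, and the genes for OX40 and GITR are direct neighbours on its plus strand, Tnfrsf4 at chr4:156013843-156016612 and Tnfrsf18 at chr4:156026164-156028895, with no protein-coding gene in the 9551 bases between them. Their promoters and that of Tnfrsf9 are shown because these 3 genes rose together and to different extents. Each window is from RefSeq (GRCm38.p6), runs from 250 bases before to 50 bases after an annotated start, 5′ to 3′ on the plus strand, and capitals mark matches to an AP-1 motif (TGANTCA) or the 10-base NF-κB consensus, which was widened after the windows had been read.
Tnfrsf4, chr4:156013445-156013744: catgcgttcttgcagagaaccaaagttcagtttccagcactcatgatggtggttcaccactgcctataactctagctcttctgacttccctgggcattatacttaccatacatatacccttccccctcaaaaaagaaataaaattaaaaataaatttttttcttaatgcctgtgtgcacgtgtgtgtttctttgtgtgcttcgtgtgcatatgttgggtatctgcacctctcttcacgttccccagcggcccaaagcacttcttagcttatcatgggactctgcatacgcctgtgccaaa
Tnfrsf18, chr4:156026072-156026371: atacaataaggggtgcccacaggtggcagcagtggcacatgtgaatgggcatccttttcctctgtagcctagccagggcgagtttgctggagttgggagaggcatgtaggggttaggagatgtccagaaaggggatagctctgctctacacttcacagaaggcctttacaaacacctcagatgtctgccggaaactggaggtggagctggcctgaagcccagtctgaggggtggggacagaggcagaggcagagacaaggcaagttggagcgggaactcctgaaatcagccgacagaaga
Tnfrsf9, chr4:150927749-150928048: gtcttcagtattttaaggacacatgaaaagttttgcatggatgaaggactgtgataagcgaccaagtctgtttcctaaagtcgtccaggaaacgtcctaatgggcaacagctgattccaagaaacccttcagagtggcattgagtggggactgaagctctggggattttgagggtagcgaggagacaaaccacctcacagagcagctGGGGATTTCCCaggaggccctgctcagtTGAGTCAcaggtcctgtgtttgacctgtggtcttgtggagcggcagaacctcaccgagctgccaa
RefSeq gave windows for 6 of the 10 genes (Tnfrsf1b, Tnfrsf9, Tnfrsf25, Tnfrsf4, Tnfrsf18 and Cd27), 8 windows in all, and none for Icos, Cd28, Cd40lg and Cd69. On both strands, AP-1 was found in 1 of the 8 windows and in 7.81% of all 32851 promoters, and the NF-κB consensus in 1 of 8 and in 4.51% of all. Both were in the Tnfrsf9 window printed here, 1 of 2 for that gene, AP-1 from base -15 and 2 overlapping NF-κB matches from bases -43 and -42 relative to the start. A T-box motif (TCACACC, 3.98% of promoters) and a RUNX motif (TGTGGTT, 5.27%) were in 0 of 8 windows. A match describes these letters and is no evidence of binding.

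Tnfrsf4, which encodes OX40, had 5.60, 8.68, 7.22 and 11.2 FPKM in flow-through 1 to 4 and 20.3, 28.7, 24.9 and 30.7 FPKM in enriched 1 to 4. Enriched libraries were high in every mouse, and mouse 1 gave the lowest and mouse 4 the highest value of each fraction. The means were 8.17 ± 2.38 and 26.1 ± 4.60 FPKM (SD, n = 4) and the ratio within a mouse stayed between 2.74 and 3.62. Tnfrsf4 thus rose by 1.59 on the log2 scale (SE 0.20, limma adjusted p = 0.00164).

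Tnfrsf18, which encodes GITR, was at 17.2, 31.2, 28.9 and 36.2 FPKM in flow-through and at 38.5, 46.7, 43.2 and 51.4 FPKM in enriched cells. The fractions were close, with the lowest enriched library just above the highest flow-through library. The ratio of the means was 1.58 and the log2 fold change 0.69 (SE 0.21, limma adjusted p = 0.0410). Tnfrsf18 had the weakest rise of the 8 genes that passed, and its call was lost in 7 of 14 alternative settings, among them T-cell scaling (0.39, limma adjusted p = 0.129), although a fit with the mouse as a block gave a limma adjusted p of 0.00394. An exon of Tnfrsf18 overlaps Gm16008 on the other strand, and the values were made without stated use of strand, so reads of the pair may be mixed. The ratio of Tnfrsf4 to Tnfrsf18 rose from 0.291 ± 0.0337 to 0.579 ± 0.0384 (SD, n = 4), higher in 4 of 4 mice (exact two-sided permutation test, p = 0.0286, also after adjustment over 4 ratios).

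Tnfrsf9, which encodes 4-1BB, was at 6.31, 11.2, 11.2 and 11.05 FPKM in flow-through 1 to 4. The enriched libraries held 14.9, 18.5, 22.5 and 21.8 FPKM. The fractions did not overlap, and flow-through 1 lay below its 3 companions, which were almost equal. Tnfrsf9 rose by 0.92 on the log2 scale (SE 0.20, limma adjusted p = 0.0112).

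Tnfrsf1b, the gene of the TNF receptor TNFR2 that is largely restricted to blood cells and endothelium, was at 18.1, 32.6, 25.2 and 30.7 FPKM in flow-through and at 44.6, 57.1, 52.3 and 59.0 FPKM in enriched cells. Each enriched library was above every flow-through library. Tnfrsf1b rose by 1.00 on the log2 scale (SE 0.18, limma adjusted p = 0.00591), and the ratio within a mouse was 1.75 to 2.46. Tnfrsf1a, the gene of the widely expressed TNFR1, was at 25.6 ± 8.14 and 34.3 ± 5.63 FPKM (log2 difference 0.45, limma adjusted p = 0.165). The ratio of Tnfrsf1b to Tnfrsf1a was 1.06 ± 0.0954 in flow-through and 1.57 ± 0.161 in enriched cells (SD, n = 4), higher in 4 of 4 mice (exact two-sided permutation test, p = 0.0286, also after adjustment over 4 ratios).

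Tnfrsf25, which encodes the TL1A receptor DR3, had 8.70, 16.4, 11.5 and 15.7 FPKM in flow-through and 20.3, 31.3, 25.6 and 32.7 FPKM in enriched cells. The libraries of mice 2 and 4 were the highest of both fractions, and no values overlapped. The ratio within a mouse varied little, from 1.91 to 2.33, and Tnfrsf25 rose by 1.03 on the log2 scale (SE 0.22, limma adjusted p = 0.0102).

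Cd27, the receptor for CD70 that supports survival of naive and memory T cells, was the most abundant of the 10 genes in both fractions. Its levels were 77.9, 135, 116 and 139 FPKM in flow-through 1 to 4 and 132, 125, 124 and 129.7 FPKM in enriched 1 to 4. The fractions overlapped, the enriched value was higher in 2 of 4 mice, and the low value was again flow-through 1. The log2 difference was 0.16 (95% interval -0.23 to 0.55, limma adjusted p = 0.507). It was -0.02 without flow-through 1 and -0.14 after T-cell scaling, so Cd27 has no stable direction here. The interval does not reach the changes of Icos, Cd40lg or Tnfrsf4. Mir8113 overlaps an exon of Cd27 on the same strand.

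Cd69 was at 30.6, 66.8, 54.7 and 82.3 FPKM in flow-through 1 to 4 and at 30.9, 43.1, 38.1 and 54.1 FPKM in enriched 1 to 4. Enriched values were below their flow-through partners in mice 2, 3 and 4 and about equal in mouse 1, and the fractions overlapped. The log2 difference was -0.43 (SE 0.29, 95% interval -1.10 to 0.24, limma adjusted p = 0.302). With the mouse as a block Cd69 passed as lower (limma adjusted p = 0.0234, with 22.7% of all genes lower in that fit), and without flow-through 1 the difference was -0.70 (limma adjusted p = 0.0350, with 13.1% of all genes lower). After T-cell scaling it was -0.72 (limma adjusted p = 0.0557). The ratio of Cd69 to Tnfrsf9, both induced by activation, was 5.79 ± 1.22 in flow-through and 2.14 ± 0.344 in enriched cells (SD, n = 4), lower in 4 of 4 mice by -1.35 on the log2 scale (exact two-sided permutation test, p = 0.0286, also after adjustment over 4 ratios). Tnfrsf9 itself rose without overlap, so the lower ratio is not separate evidence on Cd69. The CD69 partner S1pr1 (86.2 ± 25.7 and 93.2 ± 6.00 FPKM) and Klf2, a transcriptional activator of S1pr1 (162 ± 57.6 and 179 ± 21.8 FPKM) did not pass the test.

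**Figure D3:**
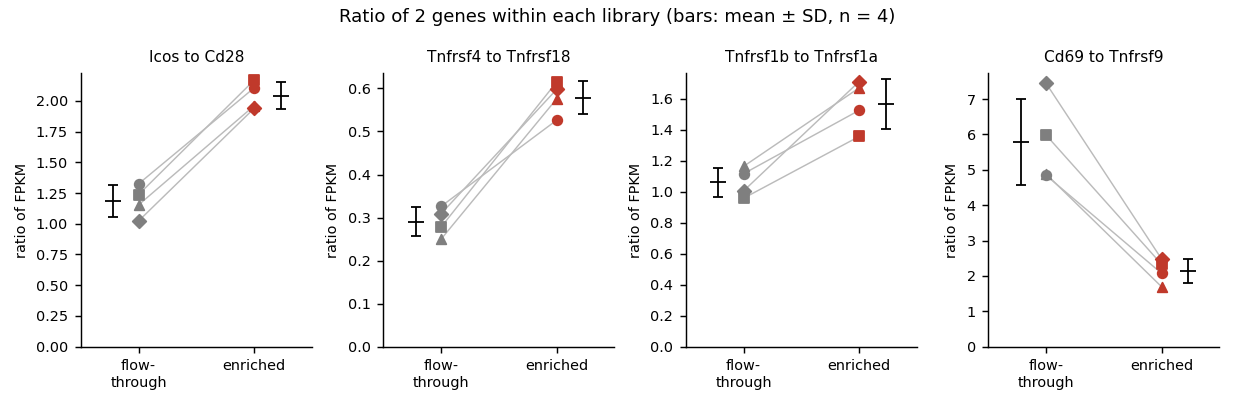
Ratio of FPKM of 2 genes within each library (vertical axes from 0), for the flow-through and enriched fraction, with lines joining the fractions of 1 mouse, marker shape giving the mouse (circle 1, square 2, triangle 3, diamond 4) and bars giving mean ± SD (n = 4). Icos to Cd28, Tnfrsf4 to Tnfrsf18 and Tnfrsf1b to Tnfrsf1a are higher in all enriched libraries, and Cd69 to Tnfrsf9 is lower in all.

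The order of the genes by level also differed. FPKM is a value per length, so genes may be ranked within a fraction. In flow-through the order was Cd27, Cd69, Tnfrsf18, Icos, Tnfrsf1b, Cd28, Tnfrsf25, Tnfrsf9, Tnfrsf4 and Cd40lg, and among neighbours in this order the ranges overlapped except between Tnfrsf4 and Cd40lg. In enriched cells Icos stood second after Cd27 with no overlap with either neighbour, followed by Tnfrsf1b, Tnfrsf18, Cd28, Cd69, Tnfrsf25, Tnfrsf4, Tnfrsf9 and Cd40lg, whose ranges overlapped from one to the next. The summed level of the 10 genes was 202.8 to 383 FPKM in flow-through and 457 to 521 FPKM in enriched cells. Of that sum, Icos made up 9.05% ± 1.43 in flow-through and 18.2% ± 1.88 in enriched cells (SD, n = 4). Cd69 made up 18.0% ± 2.64 and 8.47% ± 1.51, and Cd27 made up 37.1% ± 1.02 and 26.2% ± 1.81. Tnfrsf18, at 8.91% ± 0.559 and 9.20% ± 0.606, had the smallest difference in share.

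Scaling each library to the CD8 T-cell identity genes moved the median of all genes to -0.29 and lowered the calls to 4.54% of genes higher and 6.41% lower. The scaling weighed mostly on flow-through 1, with a factor of 1.74. In the other libraries the factor ran from 0.88 (enriched 1) to 1.09 (flow-through 3). Of the 10 genes, 7 remained higher: Cd40lg (1.80), Icos (1.34), Tnfrsf4 (1.31), Tnfrsf25 (0.75), Tnfrsf1b (0.70), Tnfrsf9 (0.64) and Cd28 (0.56), with limma adjusted p values from 0.000659 for Cd40lg to 0.0478 for Tnfrsf9. Tnfrsf18 was the one that was lost.

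Markers of several other cell types were also higher in enriched cells, whereas those of B cells and erythroid cells did not pass the test. The data do not show which cells the transcripts came from, and several of the markers are also expressed by activated CD8+ T cells. Both CD4 T-cell markers were higher in enriched cells, and Cd4 itself was at 0.310, 0.574, 0.489 and 1.28 FPKM in flow-through and at 1.80, 3.44, 2.58 and 7.90 FPKM in enriched cells. The regulatory T-cell gene Foxp3 was at 1.12, 2.71, 2.23 and 4.40 FPKM and at 5.86, 11.7, 9.98 and 19.0 FPKM, respectively (log2 fold change 1.78, limma adjusted p = 0.00919). Both markers were low in flow-through and high in enriched libraries without overlap, and within each fraction both were highest in mouse 4.

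The whole marker lists were as follows. For comparison, 14.1% of all genes were higher and 13.7% lower. With the mouse as a block these shares were 22.2% and 22.7%. CD4 T-cell markers summed to 8.39 to 12.2 FPKM in flow-through and 21.3 to 34.7 FPKM in enriched cells (2 of 2 higher), with the more abundant Zbtb7b at 9.58 ± 1.34 and 23.6 ± 3.51 FPKM. Those of the regulatory T-cell markers were 5.57 to 17.5 and 22.7 to 57.4 FPKM (2 of 4 tested higher, 4 with the mouse as a block, led by Il2ra, which activated T cells also express). NK-cell markers summed to 82.3 to 246 and 227 to 493 FPKM (5 of 6 higher, led in level by Tyrobp), with Ncr1 at 1.66 ± 0.931 and 16.8 ± 8.46 FPKM. For γδ T-cell markers the sums were 67.5 to 97.0 and 89.9 to 196 FPKM (3 of 7 higher, 6 with the mouse as a block, Tcrg-C1 the most abundant), with Trdc at 8.01 ± 3.50 and 17.3 ± 5.91 FPKM. Myeloid and dendritic markers, led by Lyz2, summed to 119 to 391 and 378 to 892 FPKM (6 of 9 higher). Invariant NKT and MAIT markers, led by Trav1, summed to 1.26 to 8.38 and 8.96 to 10.9 FPKM (1 of 2 higher, 2 in the blocked fit). Of the B-cell markers (4 tested, led by Cd79b, sums 19.4 to 53.2 and 25.8 to 64.8 FPKM) and the 4 erythroid markers, 0 passed in limma, against 1 B-cell marker higher and 3 erythroid markers lower with the mouse as a block. No listed marker was at 0 in all 8 libraries. The part of these markers' cells in the results was not tested.

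**Figure D4:**
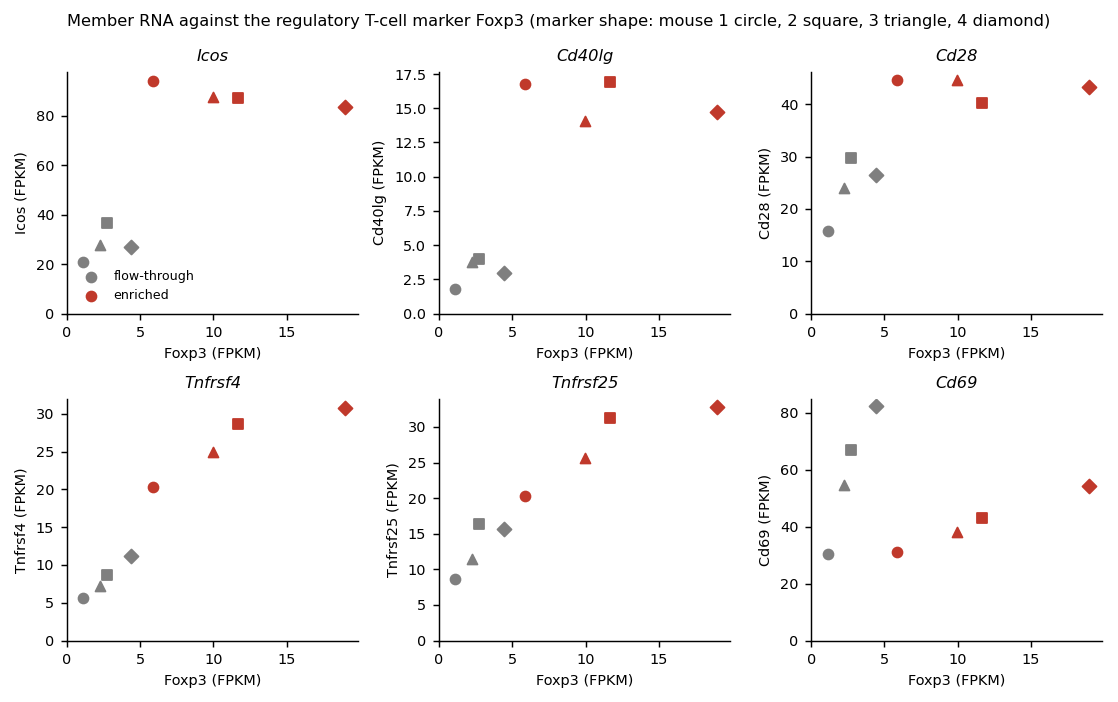
FPKM of 6 of the genes (vertical axes) against FPKM of the regulatory T-cell marker Foxp3 (horizontal axes) in the 8 libraries, grey for flow-through and red for enriched, with marker shape giving the mouse. Within the enriched libraries Tnfrsf4, Tnfrsf25 and Cd69 are higher where Foxp3 is higher, whereas Icos, Cd40lg and Cd28 are nearly level.

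The genes differed in their order among the enriched libraries. Foxp3 and Cd4 both ran from low to high in mice 1, 3, 2 and 4, and 5 of the 10 genes, Tnfrsf4, Tnfrsf18, Tnfrsf1b, Tnfrsf25 and Cd69, kept exactly that order, against 9.44% of all genes. The same order was found in 6 of 7 NK-cell, 3 of 5 regulatory T-cell, 3 of 7 γδ T-cell, 3 of 5 B-cell and 3 of 9 myeloid and dendritic markers. Of genes that mark no cell type, 3 of 7 NF-κB induced and survival genes, 5 of 17 TRAF and NF-κB genes and 5 of 21 other TNF receptors kept it. So did 1 of 11 ligands and partners and 1 of 13 genes of the CD28 and ICOS list. The order is therefore not particular to Foxp3 and Cd4. Of the CD8 T-cell identity, invariant NKT and MAIT, and erythroid markers, 0 kept it. In flow-through, Cd8b1, Cd3d, Cd3g, Cd247 and Lck ran in this order, whereas Cd8a and Cd3e did not. The order was noticed after the values were seen and has no test. Icos ran in the reverse order, as did 9.51% of all genes. While Cd4 varied 4.39-fold and Foxp3 3.24-fold between the highest and the lowest enriched library, Icos varied 1.12-fold, Cd28 1.11-fold and Cd40lg 1.20-fold. Enriched 1 held the lowest Foxp3 and Cd4 and the highest Icos. Cd40lg kept neither order, with 16.8, 16.9, 14.1 and 14.7 FPKM in enriched 1 to 4. Which cells these transcripts came from was not tested.

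The other genes of these pathways were counted in lists of ligands, relatives and relay factors. Of 11 ligands and partners, 8 passed the filter, 5 were higher and 0 lower (median 0.86), beside 14.1% and 13.7% of all genes. The ICOS ligand gene Icosl was at 4.71 ± 1.69 FPKM in flow-through and 11.2 ± 2.76 FPKM in enriched cells (log2 fold change 1.12). The CD28 ligand gene Cd80 (0.95), the 4-1BB ligand gene Tnfsf9 (0.82), the TNF gene Tnf (0.99) and the lymphotoxin gene Lta (0.90) also rose. After T-cell scaling Tnfsf9 (limma adjusted p = 0.0621) and Lta (limma adjusted p = 0.0512) no longer passed. Tnfsf9 was among the least variable, with 2.29, 2.18, 2.22 and 2.64 FPKM against 5.03, 4.68, 4.65 and 5.13 FPKM. Cd86 (log2 difference 0.69, limma adjusted p = 0.00362 with the mouse as a block), Cd40 (0.53) and the OX40 ligand gene Tnfsf4 (0.48) did not pass without the block, and the means of Cd70, Tnfsf18 and Tnfsf15 were below 1 FPKM. Icosl, Cd80 and Cd86 are best known from antigen-presenting cells, whose summed markers are given above.

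Of the other CD28 family receptors, all 3 were higher, the inhibitory receptors Pdcd1 (PD-1, 1.48), Ctla4 (1.10) and Btla (0.74), of which Btla no longer passed after T-cell scaling (limma adjusted p = 0.102). Of 21 other TNF receptor family genes, 15 were tested, 2 rose, 1 fell and the median was 0.04. Over all genes 14.1% were higher and 13.7% lower, so these counts are near the share of all genes. When the mouse was a block, 6 of the 15 were higher and 1 lower, beside 22.2% and 22.7% of all genes. Tnfrsf1a was then among those higher (limma adjusted p = 0.0171). Tnfrsf13c (BAFF receptor, 0.93) and Tnfrsf8 (CD30, 0.92) were higher, and Tnfrsf12a, the TWEAK receptor gene, fell by 0.44 (limma adjusted p = 0.0236). Neither the death receptor gene Fas (10.6 ± 2.80 and 13.6 ± 1.17 FPKM) nor Tnfrsf14 (HVEM, 41.6 ± 19.6 and 27.5 ± 3.85 FPKM, its highest value of 70.8 FPKM in flow-through 1) passed the test.

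The lists of relay genes had medians closer to 0 than that of the 10 genes. In the TRAF and NF-κB list, 6 of 17 were higher and 0 lower with a median of 0.23, the largest change being that of Traf5 (0.61), an adaptor of OX40, GITR and CD27, while Traf1, an adaptor of 4-1BB, was at 65.8 ± 15.1 and 71.8 ± 7.31 FPKM (log2 difference 0.15, limma adjusted p = 0.544). In the CD28 and ICOS list, 5 of 13 were higher and 0 lower with a median of 0.22. Over all genes 14.1% were higher and 13.7% lower. After T-cell scaling, limma called 0 genes of either list, beside 4.54% of all genes higher and 6.41% lower. With the mouse as a block it called 8 higher and 1 lower in the first list and 6 higher in the second. The shares of all genes in that fit were 22.2% and 22.7%. Of 7 NF-κB induced and survival genes 3 were higher, led by Bcl2a1b (1.53), which has near-identical paralogs so that its reads may be shared. The survival gene Bcl2 went the other way, with 18.0 ± 6.23 FPKM in flow-through and 10.1 ± 1.99 FPKM in enriched cells (log2 difference -0.72, limma adjusted p = 0.0683). It was lower in enriched cells in 4 of 4 mice, as were 30.6% of all genes. Bcl2 passed as lower with the mouse as a block (limma adjusted p = 0.00651) and after T-cell scaling (-1.0, limma adjusted p = 0.0105). The mRNA decay factor genes Rc3h1 (roquin-1), Rc3h2 (roquin-2) and Zc3h12a (regnase-1), which limit the Icos transcript, had log2 differences of -0.01, 0.17 and -0.02 and did not pass the test.

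**Figure D5:**
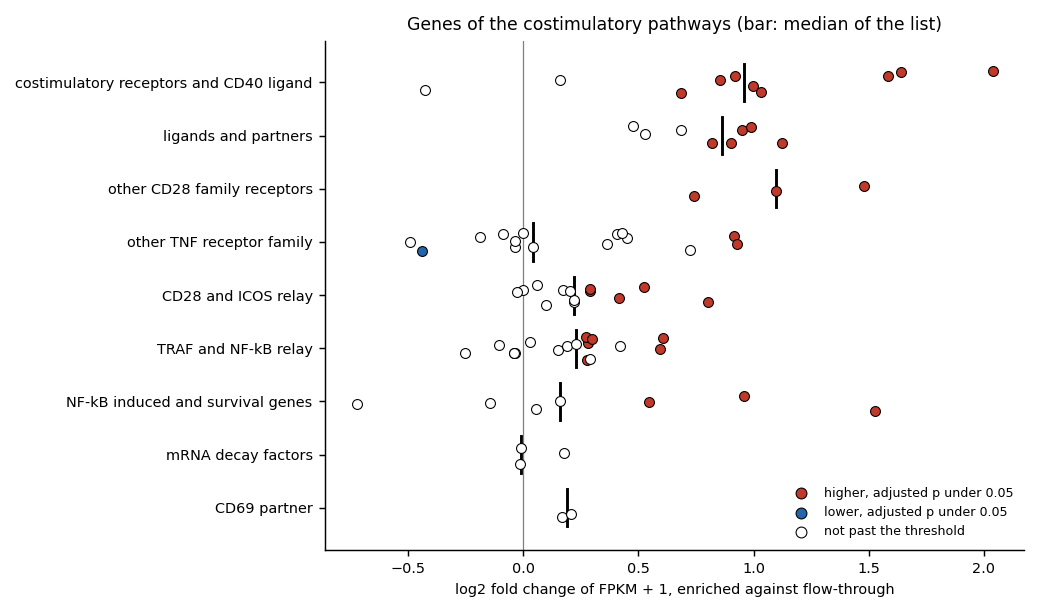
log2 fold change of FPKM + 1, enriched against flow-through, of each tested gene in 9 lists (1 point a gene, red for higher and blue for lower at a limma adjusted p below 0.05, white for neither, vertical jitter only for display), with a bar at the median of each list. The upper 3 lists have medians of 0.96, 0.86 and 1.10, against 0.04 for the other TNF receptors and 0.22 and 0.23 for the relay lists.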

How the data were processed

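RNA-seq was done on 4 IL-18Rαhi-enriched and 4 flow-through libraries, grouped by the labels. The authors deposited FPKM values, estimated per gene with Cufflinks 2.1.1 after mapping 150-base paired reads of stranded poly(A) libraries to mm10 with TopHat, with correction for reads of several origins and for fragment bias. Use of strand and the annotation release are not given in the sources used here. Positions are from GENCODE M21, which held 98.9% of the gene identifiers. FPKM carry no exact depth and whole reads could not be recovered, so counts were not modelled and no counting interval is given. Approximate depth came from single-transcript genes of at least 1500 bases below 0.2 FPKM, with an assumed fragment length of 200 bases.

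Fractions were compared with limma 3.58.1 (R 4.3.3) on log2(FPKM + 1), with a variance trend and without a block, over the genes that averaged 1 FPKM or more, at a Benjamini-Hochberg adjusted p below 0.05. Log fold changes understate those of low genes because of the pseudocount. Same-numbered libraries were taken as the fractions of 1 mouse. Their deviations from the group means correlated (r = 0.66, 0.59, 0.31 and 0.47). Between libraries of unlike number r ran from -0.60 to 0.41, the highest being flow-through 2 with enriched 4. Each library correlated best with its same-numbered partner. Alternatives were the mouse as a block, a pseudocount of 0.1, no filter or a stricter one of 5 FPKM, upper-quartile scaling, T-cell scaling (division by the geometric mean of Cd8a, Cd8b1, Cd3d, Cd3e, Cd3g, Cd247 and Lck) and leaving out each library. Ratios of 2 genes were compared on log2 of (FPKM + 1) with an exact permutation test over 70 arrangements (Python 3.11.15, scipy 1.17.1). The scripts were tested on simulated data.

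The genes and lists were chosen with earlier results of these data known. Named were the 10 genes, ligands that averaged 1 FPKM or more, in each other list the called genes with the largest rise and fall and every gene of lists of 3 or fewer, Tnfrsf1a, Tnfrsf14, Fas and Traf1, in marker lists the gene of the highest mean with Cd4, Foxp3, Trdc and Ncr1, and the 3 genes most like each of Icos, Cd40lg and Cd69. Bcl2, which changed call between the fits, and Cd70, Tnfsf18 and Tnfsf15, below the filter, are named outside this rule and after their values were seen. A gene that this rule names is not reported here.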

Additional observations from a re-analysis of the deposited data

Results flagged for a closer look

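Within the 4 flow-through libraries, Tnfrsf9 (4-1BB) was at 6.31 FPKM in flow-through 1 and between 11.05 and 11.2 FPKM in the other 3. This gap was 0.966 of the range of the 4 values and exceeded Dixon's 95% critical value for 4 samples. It was the single value of this kind in 54 groups examined, where chance alone gives about 2.7. Those groups did not hold every gene named here. Tnfrsf14, at 70.8 FPKM in flow-through 1 against 28.8, 34.6 and 32.0 FPKM in flow-through 2 to 4, was not among them and also stood apart. Flow-through 1 had the lowest summed CD8 T-cell identity genes, and the part of that in the Tnfrsf9 value was not tested. Tnfrsf9 passed the limma test as higher in enriched cells with and without this library.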

How the results depend on the processing

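Icos, Cd28, Cd40lg, Tnfrsf4, Tnfrsf9, Tnfrsf1b and Tnfrsf25 kept their direction and stayed past the threshold in all 14 alternatives. Tnfrsf18 lost its call in 7 of them: without the filter, after T-cell scaling, and without flow-through 3 or any 1 of the 4 enriched libraries. Cd69 gained a call as lower with the mouse as a block and without flow-through 1. Cd27 turned to -0.14 after T-cell scaling and to -0.02 without flow-through 1, and lay between -0.0205 and 0.2556 when each library was left out. With the replicate block, 2705 genes were higher and 2763 lower against 1720 and 1664 without it, 1 of the 10 genes was lower, and the pathway lists had 3 lower genes against 1. With a mean of at least 5 FPKM they had 0 lower genes by limma, since Tnfrsf12a was then not tested. T-cell scaling gave 552 higher and 780 lower genes, moving the share of calls that were higher from 50.8% to 41.4%, with 9 higher and 2 lower in the pathway lists against 24 and 1. Leaving out 1 library gave 1124 to 1802 higher and 940 to 1781 lower genes, 7 to 8 of the 10 genes higher and 0 to 1 lower, and 11 to 23 higher and 0 to 3 lower genes in the pathway lists. Counts moved by over 1.5 times without enriched 2 (1124 higher and 956 lower), enriched 4 (1129 and 973) and, for lower genes, flow-through 3 (940), and pathway genes that were higher fell to 15 without flow-through 3, enriched 2 or enriched 3 and to 11 without enriched 4. With 1 library left out, the log2 differences of the 4 ratios ran from 0.72 to 0.84, 0.83 to 0.97, 0.50 to 0.61 and -1.44 to -1.21, and their exact permutation p of 0.0286 is the smallest the design allows with or without the library, so it says nothing about stability. With the replicate block, sign flips within the 4 mice left the log2 differences at 0.78, 0.90, 0.55 and -1.35 with an exact p of 0.125, the smallest possible, so this design could not reach the threshold. The cause of the other shifts was not tested. The number of 4 mice and the unknown exact depth limit these comparisons.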

Other observations

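Over the 8 libraries, the genes whose profile of log2(FPKM + 1), centred on its own mean, lay nearest to Icos were Anxa2 (root mean square difference 0.0726, 125 ± 27.3 FPKM in flow-through and 367 ± 18.7 FPKM in enriched cells), Ttc39c (0.0779) and Rap1gap2 (0.0836). Nearest to Cd40lg were the calcium-binding protein gene S100a4 (0.124, 386 ± 89.0 and 1673 ± 151 FPKM), the chemokine receptor gene Ccr10 (0.150) and Crmp1 (0.168). Nearest to Cd69 were Sardh (0.0904), Socs3, which encodes a suppressor of cytokine signalling (0.118, 43.4 ± 14.4 and 28.2 ± 7.32 FPKM), and Tcp11l2 (0.121). The 8 libraries fall into 2 fractions of the same 4 mice, so these distances are descriptions.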
